A study of Mus musculus with 36 samples.

Results

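Il6 encodes interleukin-6, a secreted cytokine of the inflammatory response, and lies on the plus strand of mouse chromosome 5 at chr5:30013114-30019975 (mm10). The Il6 locus was taken as the gene with 50 kb to either side. All 22 accessible regions (peaks) in that window, of 119751 peaks counted across the genome, are described here, and all 22 passed the filter on low counts that left 119464 tested peaks. Each peak is named by the distance of its centre from the Il6 start site in kilobases: 9 lie upstream, 1 overlaps the start site (chr5:30012594-30013781), 7 lie inside the gene, and 5 lie downstream. The window also holds the long non-coding RNA gene A230098N10Rik, which spans Il6 and so shares its peaks from -5.9 to +10.5 kb by position, and part of Tyms, which encodes thymidylate synthase and contains the +26.9 kb peak.

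The assay was ATAC-seq, where a transposase inserts sequencing tags into open DNA. The cells were dendritic cells grown from the bone marrow of female C57BL/6 mice aged 6 to 8 weeks with the growth factor GM-CSF at 15 ng/ml. They were left without ligand or given ligands of innate immune receptors for 6 h, and the 36 libraries form 18 groups of 2. Among the single ligands, LPS (L) is a bacterial cell wall component sensed by Toll-like receptor 4. The ligand 3',3'-cGAMP (cG) is a cyclic dinucleotide sensed through STING, and depleted zymosan (Z) is made from a yeast cell wall preparation. The ligands labelled SeV (S), HMW (H) and PAM (P) are not spelled out in the labels. The other groups are the pairs PL, PH, LH, PS, PcG, ScG, ZS and ZcG, the triplets PLH, PScG and ZScG, and the control (Ctrl). Every group shares strain, sex, age range and culture. The labels do not say whether the libraries of a group came from separate animals or cultures. The p-values therefore measure only the spread between these libraries, pooled over groups and largely over peaks.

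Interleukin-6 is released by dendritic cells and macrophages after contact with microbial products and acts through a receptor made of a ligand-binding chain and the shared chain gp130 (Il6st), which signals through Janus kinases and STAT3. Transcription of Il6 after stimulation is known to depend on NF-kB, C/EBP and AP-1 factors that bind near its start site, and on slower remodelling of chromatin at the promoter. Accessibility reports whether DNA at a site is open to the transposase, and not how much RNA is made.

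The 250 bases before the Il6 start, chr5:30012864-30013113 on the plus strand (RefSeq, GRCm38.p6), lie wholly inside the start-site peak and are printed because this peak changed in nearly all stimulations. Capitals mark, in order from the 5′ end, matches to the AP-1 letters TGANTCA, the C/EBP letters TTNNGCAA and the NF-kB consensus.

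Il6 promoter: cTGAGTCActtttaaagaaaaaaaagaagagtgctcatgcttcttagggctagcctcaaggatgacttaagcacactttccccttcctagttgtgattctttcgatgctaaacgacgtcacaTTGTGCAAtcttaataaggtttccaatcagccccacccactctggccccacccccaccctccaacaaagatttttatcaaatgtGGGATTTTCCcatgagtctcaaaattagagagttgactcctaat

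Both strands were searched, and the matches do not overlap. The NF-kB match lies at bases -44 to -35 from the start site, and 1.21% of 32851 RefSeq promoters of the same length hold this motif. The C/EBP match lies at -128 to -121 (9.56% of promoters) and the AP-1 match at -249 to -243 (6.75% of promoters). The letters TGACGTCA (CRE) and the IRF consensus are not in this window, and 1.55% and 2.98% of promoters hold them. A match is a string of letters and not a measured binding site.

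Total counts ran from 19097027 to 39977088 a library. One peak covers the mitochondrial genome, and without it 8181254 to 21985891 counts remained. Levels are given as CPM, each count divided by the library's remaining counts after TMM scaling and expressed in the usual unit. The mitochondrial peak took 63.0% ± 0.157 (SD, n = 2) of counts in ZcG and 61.7% ± 1.06 in Z. Control had 61.0% ± 1.23, ScG 59.4% ± 2.97 and ZScG 58.3% ± 0.556, and the means of the other groups ran from 44.4% to 54.5%. This measure therefore moves with most stimulations, and its part in the results was not tested. Start sites of dendritic cell marker genes had a tested peak for 8 of 8 markers, with a summed level of 141.3 to 173.9 CPM over the groups, and macrophage and monocyte markers for 6 of 6, at 70.8 to 111.3 CPM. Granulocyte markers had one for 1 of 6 (S100a8, 7.25 to 18.9 CPM), T cell markers for 1 of 4 (Cd4, 3.93 to 7.64 CPM), B cell markers for 1 of 4 (Ebf1, 1.98 to 4.49 CPM) and non-blood markers for 0 of 4. The dendritic cell sum was uneven. Over single libraries Zbtb46 read 0 to 1.67 CPM, Ciita 0.538 to 4.34 CPM and Flt3 1.79 to 5.98 CPM. Itgax, Irf8, Ccr7, Cd74 and Spi1 each read at least 11.1 CPM.

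The first question is how each stimulation differed from unstimulated cells. Across the 22 peaks and 17 stimulations, 158 of 374 tests were called in edgeR's quasi-likelihood test (Benjamini-Hochberg adjusted p under 0.05), which is 42.2%. Over all tested peaks the share was 25.2%. Of the 158 calls 153 were higher and 5 lower, whereas over all peaks the calls were nearly even, at 13% higher and 12.3% lower. Calls that were higher fell on 61 of 153 tests upstream, 16 of 17 at the start site, 46 of 119 inside the gene and 30 of 85 downstream, and all 5 lower calls lay at the +23.0 kb peak. The heat map of the locus shows this, with the darkest cells downstream in the columns of stimulations with PAM.

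**Figure D1:**
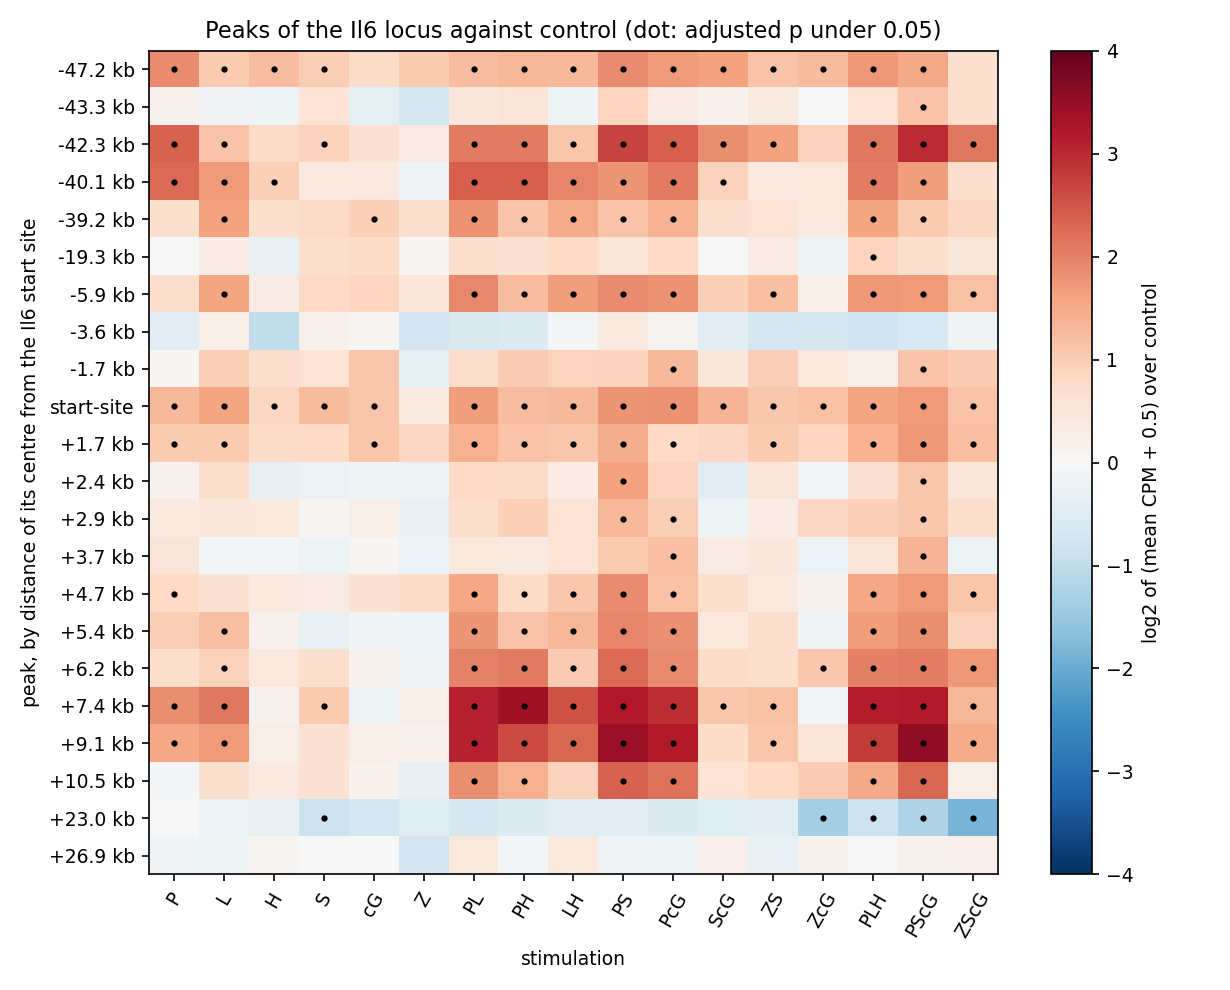
Heat map of the 22 Il6 locus peaks (vertical, by distance of the peak centre from the start site) against the 17 stimulations (horizontal); colour is log2 of the ratio of mean CPM to control after adding 0.5 to both, and a dot marks an adjusted p under 0.05. Of 374 cells 158 carry a dot, with 0 in the column of Z and 19 in that of PScG.

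The start-site peak held the most counts of the 22 in control, and it rose in 16 of 17 stimulations. In control its libraries read 6.88 and 8.88 CPM. PAM alone gave 19.9 and 20.7 CPM, LPS 24.9 and 24.2 CPM, HMW 12.9 and 15.8 CPM, SeV 18.8 and 20.1 CPM, and cGAMP 16.8 and 18.2 CPM. All libraries of these 5 ligands lay above both control libraries. Depleted zymosan gave 11.9 and 8.71 CPM, which overlaps control.

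In log2 units the start-site peak rose by 1.36 ± 0.17 with PAM (SE, adjusted p = 2.3e-12), by 1.63 ± 0.16 with LPS (adjusted p = 2.69e-17), by 0.85 ± 0.17 with HMW (adjusted p = 0.000114), by 1.30 ± 0.17 with SeV (adjusted p = 9.43e-12) and by 1.14 ± 0.17 with cGAMP (adjusted p = 5.04e-09). For depleted zymosan the difference was 0.37 ± 0.19 (adjusted p = 0.271; 95% interval -0.0035 to 0.74). These and the other adjusted p-values are from edgeR's quasi-likelihood test over all peaks.

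The 4 highest start-site means were those of pairs and a triplet with PAM. PS gave 25.5 and 30.9 CPM, PcG 28.0 and 28.8 CPM, PL 28.2 and 23.8 CPM, PH 19.9 and 18.8 CPM, LH 22.0 and 18.4 CPM, ScG 19.999 and 21.9 CPM, ZS 16.8 and 17.97 CPM, and ZcG 17.5 and 19.4 CPM. The triplets gave 25.1 and 23.6 CPM (PLH), 25.9 and 28.1 CPM (PScG) and 19.6 and 16.1 CPM (ZScG). The log2 differences from control in these 11 groups ran from 1.13 (ZS, adjusted p = 1.48e-08) to 1.84 (PcG, adjusted p = 7.23e-22). In descending order of mean level the groups were PcG, PS, PScG, PL, L, PLH, ScG, P, LH, S, PH, ZcG, ZScG, cG, ZS, H, Z and control. Of the 17 steps between neighbours in that order, 14 joined groups whose library values overlapped, so only the steps from PLH to ScG, from ZS to H and from H to Z separated neighbours. The plot of start-site levels by group shows the narrow band in which most stimulations lie.

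**Figure D2:**
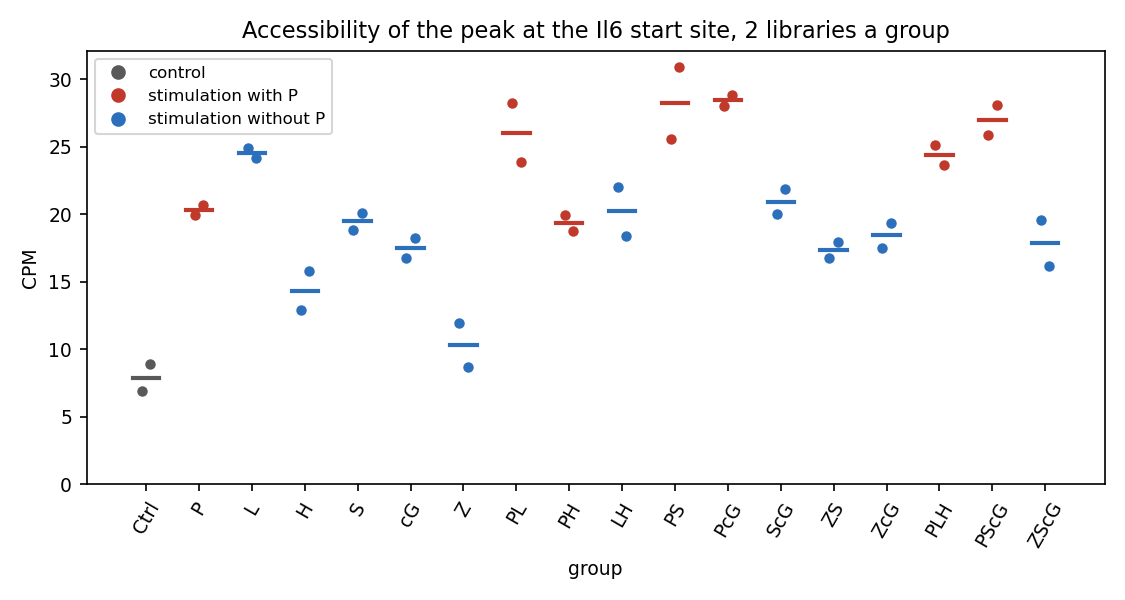
CPM of the start-site peak (vertical) in each of the 18 groups (horizontal); points are libraries and lines group means of 2 libraries. Control lies at 6.88 and 8.88 CPM and Z at 11.9 and 8.71 CPM, and the highest single library is PS at 30.9 CPM.

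Upstream of Il6, the peaks at -47.2, -42.3, -40.1 and -39.2 kb carried most of the calls. The -40.1 kb peak rose in 11 of 17 stimulations, 7 of them the 7 that contain PAM. In control its libraries read 1.75 and 2.22 CPM. PAM alone gave 9.77 and 12.9 CPM, LPS 8.27 and 7.06 CPM, HMW 4.57 and 4.05 CPM, SeV 3.21 and 2.28 CPM, cGAMP 2.71 and 2.79 CPM, and depleted zymosan 2.23 and 1.26 CPM. PAM therefore gave the highest level of any single ligand, with both libraries above all others of the single ligands.

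The log2 rise at -40.1 kb was 2.50 ± 0.31 with PAM (adjusted p = 2.72e-13), 1.93 ± 0.31 with LPS (adjusted p = 3.58e-08) and 1.12 ± 0.33 with HMW (adjusted p = 0.0111). The HMW call was lost without the first control library (0.96) or the first HMW library (1.02). SeV (0.45 ± 0.34, adjusted p = 0.332), cGAMP (0.46 ± 0.35, adjusted p = 0.352) and depleted zymosan (-0.23 ± 0.41, adjusted p = 0.82) did not pass. Among pairs the libraries read 11.7 and 13.1 CPM in PL, 11.4 and 13.9 CPM in PH, 8.48 and 9.84 CPM in LH, 8.66 and 7.35 CPM in PS, and 9.58 and 10.3 CPM in PcG. The pairs ScG (3.53 and 4.81 CPM), ZS (3.66 and 1.84 CPM) and ZcG (3.14 and 2.45 CPM) stayed under all of these, as did the triplet ZScG at 3.80 and 3.03 CPM. PLH gave 7.17 and 12.2 CPM and PScG 7.36 and 7.54 CPM.

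Of the other peaks of this upstream group, the one at -42.3 kb rose in 13 of 17 stimulations and was at 0 and 0.386 CPM in control, at 2.21 and 3.90 CPM with PAM and at 5.12 and 4.84 CPM with PScG. Its log2 rise was 3.85 ± 0.84 with PAM (adjusted p = 5.2e-07) and 4.55 ± 0.84 with PScG (adjusted p = 1.69e-10), from 4 control counts in all. The -39.2 kb peak rose in 9 of 17, among single ligands with LPS (5.72 and 3.40 CPM, log2 difference 1.93 ± 0.42, adjusted p = 5.26e-05) and cGAMP (2.63 and 2.87 CPM, 1.22 ± 0.44, adjusted p = 0.0235), while PAM gave 2.75 and 1.44 CPM against 0.874 and 1.45 CPM in control (0.82 ± 0.45, adjusted p = 0.18). The LPS call at -39.2 kb held under all alternatives run, but the cGAMP call was lost without the first control library (0.92) and without either cGAMP library (1.16 and 1.28). The adjoining peaks were not tested against each other.

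The -47.2 kb peak was called in 14 of 17 stimulations, but control held only 3 counts over both libraries (0 and 0.289 CPM). PAM held 51 counts (0.916 and 2.82 CPM), a ratio of 12.3 to control after scaling with a 95% counting interval of 3.98 to 61.7. PS held 77 counts (1.88 and 1.90 CPM), a ratio of 12.3 (4.06 to 61.0). The size of these differences is thus poorly fixed, since the control level rests on 3 counts. Many of the calls were fragile too. Those of L, H, S, PL, PH, LH, ScG, ZS, ZcG and PScG were lost without the first control library (1.42 to 2.27). The PAM call was lost without the second PAM library (2.52).

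Nearer the gene, the -5.9 kb peak rose in 10 of 17 stimulations. It read 0.219 and 0.193 CPM in control, 1.91 and 1.29 CPM with LPS and 2.13 and 2.14 CPM with PS. The log2 difference was 2.89 ± 0.89 for LPS (adjusted p = 0.00163) and 3.32 ± 0.88 for PS (adjusted p = 7.01e-05). The remaining upstream peaks showed few calls. The -43.3 kb peak passed in 1 stimulation (PScG), the -19.3 kb peak in 1 (PLH), the -1.7 kb peak in 2 (PcG and PScG) and the -3.6 kb peak in none. Each of these 4 calls was lost without either control library and without at least 1 library of its own group. At -3.6 kb the libraries ranged from 0.172 to 1.90 CPM, and control (1.09 and 0.965 CPM) sat inside that range; 1 of its 17 tests had an unadjusted p under 0.05, and DESeq2's Wald test called 0, with no adjusted p for 2.

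Inside Il6, the +1.7 kb peak rose in 12 of 17 stimulations, with 1.09 and 1.16 CPM in control, 2.98 and 2.74 CPM with PAM and 6.11 and 3.77 CPM with PScG, where the log2 difference was 2.11 ± 0.43 (adjusted p = 5.18e-06). The PAM call at +1.7 kb was lost without either control library (1.30 and 1.38) or the first PAM library (1.28). Those of L, cG, LH, PcG and ZS were lost without the first control library. The +5.4 kb peak rose in 8 of 17, from 0.437 and 0.772 CPM in control to 3.64 and 3.92 CPM with PS (log2 difference 2.61 ± 0.55, adjusted p = 6.72e-06). At the +4.7 kb peak, called in 9 of 17, control held no count, which allows up to 3 counts, and PS held 56 counts at 1.25 and 1.45 CPM, at least 8.95-fold higher than that limit over the group. At the +6.2 kb peak, called in 10 of 17, control held 1 count and PH held 60 (1.71 and 1.91 CPM), a ratio of 35.5 with a counting interval of 6.13 to 1425. Without either control library the calls of P, PH, LH and ZScG at +4.7 kb were lost, as were those of L, LH and ZcG at +6.2 kb. The +2.4, +2.9 and +3.7 kb peaks passed in 2, 3 and 2 stimulations, and PScG was among them for all 3 peaks. Every call at these 3 peaks was lost without the second control library. The PScG calls there were also lost with abundance-dependent offsets and without the first PScG library.

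Downstream of Il6, the +9.1 kb peak (chr5:30021251-30023211) rose in 11 of 17 stimulations and was at 0.874 and 0.965 CPM in control. PAM alone gave 2.29 and 4.98 CPM, LPS 4.52 and 3.77 CPM, HMW 1.27 and 1.03 CPM, SeV 1.505 and 1.72 CPM, cGAMP 1.83 and 0.573 CPM, and depleted zymosan 1.97 and 0.210 CPM. Only PAM and LPS, among single ligands, passed: 1.98 ± 0.44 (adjusted p = 5.66e-05) and 2.15 ± 0.44 (adjusted p = 5.15e-06). Without the second PAM library, the PAM difference was 1.31 and no longer passed.

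With PAM and a partner the +9.1 kb peak was several times higher. PS gave 16.8 and 12.6 CPM, PcG 11.5 and 12.9 CPM, PL 12.2 and 10.7 CPM, PH 8.62 and 8.14 CPM, PLH 11.2 and 7.75 CPM and PScG 15.6 and 16.9 CPM. Every one of these 12 libraries lay above every library of any single ligand. LH gave 6.62 and 6.35 CPM, ZScG 3.80 and 3.17 CPM, ZS 1.94 and 3.23 CPM, ScG 1.77 and 1.97 CPM and ZcG 0.966 and 2.00 CPM. The log2 rise over control was 3.97 ± 0.42 for PS (adjusted p = 9.87e-21), 4.13 ± 0.42 for PScG (adjusted p = 8.09e-22) and 1.01 ± 0.49 for ScG (adjusted p = 0.102), the pair that PScG holds besides PAM.

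**Figure D3:**
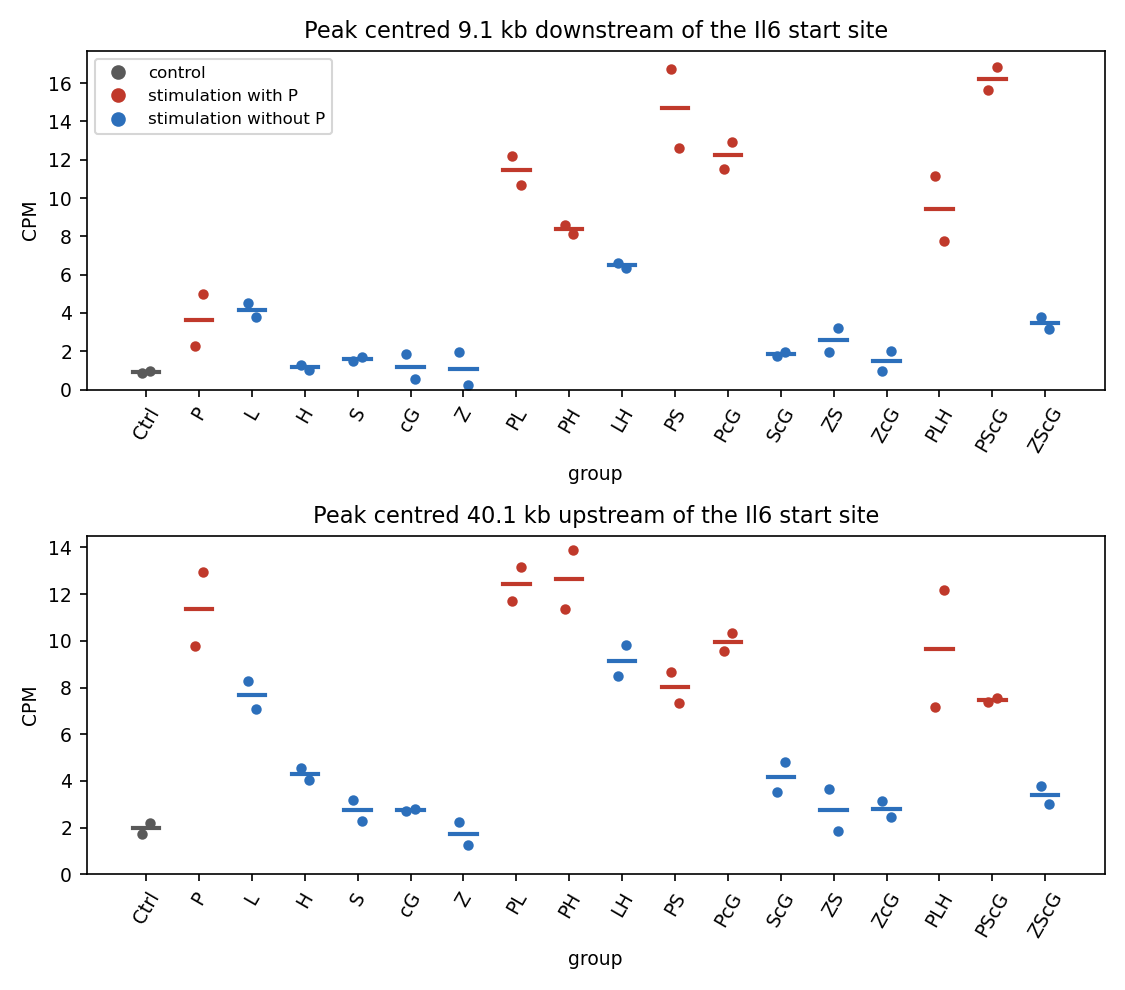
CPM of the +9.1 kb peak (top) and the -40.1 kb peak (bottom) in each of the 18 groups; points are libraries, lines are group means of 2 libraries, and colour separates control, stimulations with PAM and stimulations without. At +9.1 kb PAM alone (2.29 and 4.98 CPM) lies far under PS (16.8 and 12.6 CPM), whereas at -40.1 kb PAM alone (9.77 and 12.9 CPM) lies above PS (8.66 and 7.35 CPM).

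The +7.4 kb peak (chr5:30020007-30021085), just past the end of Il6, followed the same order of groups in part. It read 0.328 and 0.193 CPM in control, 2.44 and 2.02 CPM with PAM, 2.97 and 2.59 CPM with LPS, 6.97 and 7.86 CPM with PH and 6.46 and 6.42 CPM with PS. HMW (0.381 and 0.345 CPM) and cGAMP (0.318 and 0 CPM) were near control. It rose in 13 of 17 stimulations, by up to 4.80 ± 0.72 in PH (adjusted p = 1.15e-15), with 5 control counts in all. The S, ScG and ZS calls at +7.4 kb were lost without the second control library (1.69 to 1.83), and that of ScG also without the first ScG library (1.73). The +10.5 kb peak rose in 6 of 17, which were PL, PH, PS, PcG, PLH and PScG, and in no single ligand. Without the second control library the PH (1.80) and PLH (1.94) calls were lost, as was that of PH without the first PH library (1.93). Its libraries read 0.437 and 0.0965 CPM in control, 0.0763 and 0.361 CPM with PAM and 4.89 and 1.94 CPM with PS (log2 difference from control 3.65 ± 0.80, adjusted p = 1.74e-06).

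Farther out, the +23.0 kb peak was the only one of the 22 that fell. It read 4.70 and 3.28 CPM in control, 0.670 and 0.827 CPM in ZScG, 1.45 and 1.11 CPM in ZcG and 0.449 and 2.35 CPM in PScG. The log2 difference was -2.40 ± 0.54 in ZScG (adjusted p = 3.01e-05), -1.63 ± 0.46 in ZcG (adjusted p = 0.00288) and -1.43 ± 0.41 in PScG (adjusted p = 0.00231), and it also passed in S (-0.99 ± 0.38, adjusted p = 0.0362) and PLH (-0.99 ± 0.38, adjusted p = 0.0375). Of these 5, only the call in ZScG held without the first control library, and each of the other 4 was also lost without at least 1 library of its own group. The +26.9 kb peak, inside Tyms, passed in none of the 17, with libraries from 2.10 to 6.74 CPM and control at 4.92 and 3.76 CPM (1 unadjusted p under 0.05, and 0 calls by DESeq2's Wald test).

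Levels along the locus were also compared per length, since the peaks span 204 to 1961 bp. In control the start-site peak stood at 6.63 ± 1.19 CPM per kb (SD, n = 2), the +23.0 kb peak at 10.1 ± 2.55 and the +26.9 kb peak at 8.89 ± 1.67, and the next highest, the -19.3 kb peak, at 3.20 ± 0.100. With PS the start-site peak stood at 23.7 ± 3.19, the -40.1 kb peak at 10.3 ± 1.20 and the +9.1 kb peak at 7.49 ± 1.48 CPM per kb, with the +26.9 kb peak at 8.02 ± 0.110 and the +23.0 kb peak at 7.26 ± 0.549. The order of peaks thus differed between control and PS, as the profile along the locus shows for control, PAM, SeV and their pair.

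**Figure D4:**
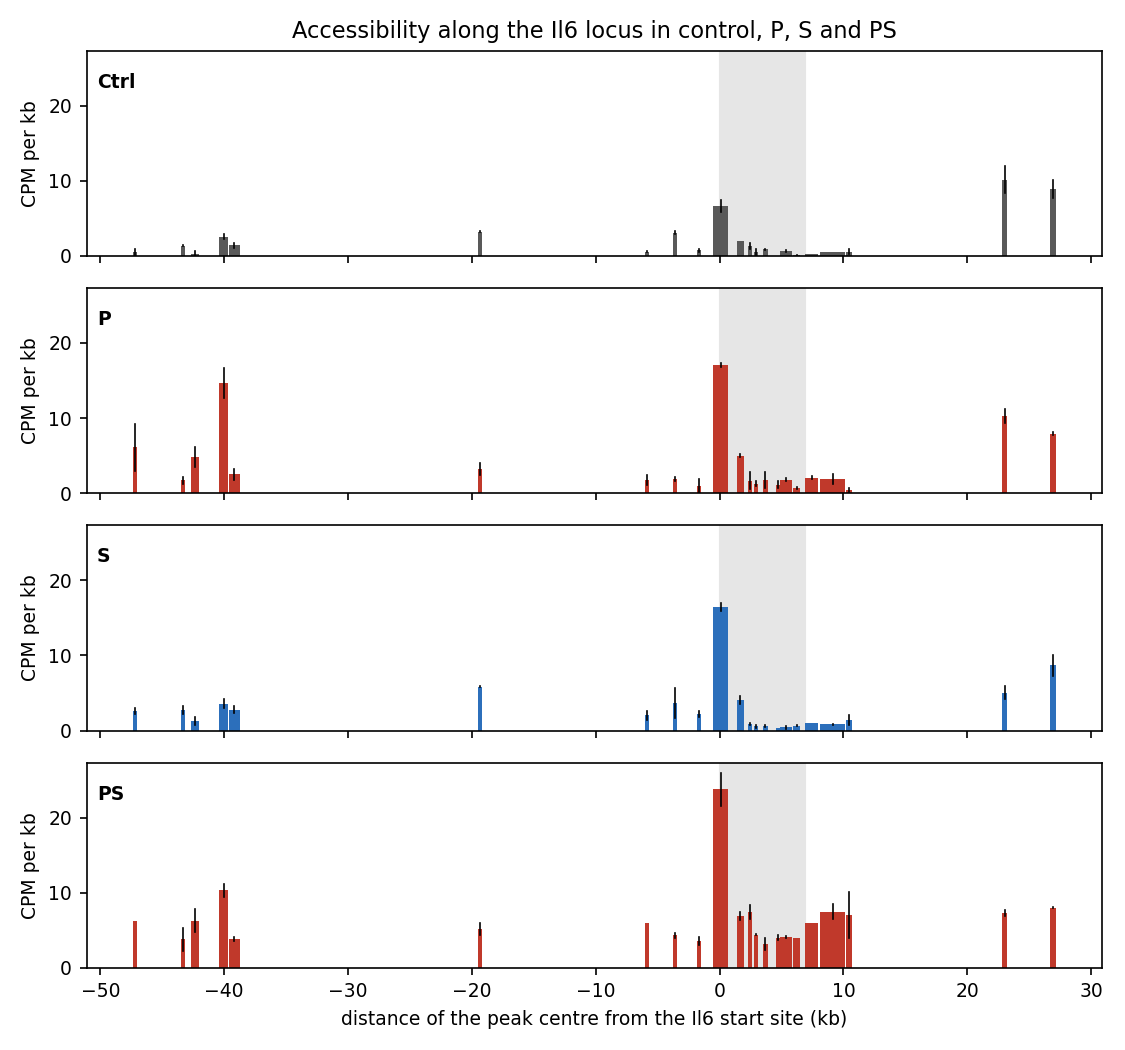
CPM per kb of peak length (vertical) against distance of the peak centre from the Il6 start site in kb (horizontal) in control, P, S and PS; bars are means of 2 libraries, black lines join the libraries, and the grey band is the Il6 gene. The start-site bar rises from 6.63 in control to 23.7 CPM per kb in PS, and the mean at +9.1 kb is 7.49 CPM per kb in PS.

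Stimulations were next grouped by whether they contain PAM. In the 7 with PAM, 99 of 154 tests of the 22 peaks were called (64.3%, against 29.6% over all peaks), and in the 10 without it 59 of 220 (26.8%, against 22.2%). The sets also differ in the number of ligands. P is the only single ligand among those with PAM, and L, H, S, cG and Z are all in the other set. This split therefore cannot separate PAM from the number of ligands. The 4 stimulations with a mean mitochondrial share nearest that of control were Z, ZcG, ScG and ZScG. In them 18 of 88 tests were called (20.5%, against 21.9% over all peaks), so in that set the locus was at the background share. Within that set the start-site peak rose in 3 of 4. The mean mitochondrial share was lower than in control in all 7 groups with PAM, and in all groups without it except Z and ZcG. It was only a little lower in ScG (59.4%) and ZScG (58.3%), against 61.0% in control. Both ZScG libraries (57.9% and 58.7%) still lay under both control libraries (61.9% and 60.1%). The groups cG (46.1%) and S (47.9%) had 3 and 5 calls among the 22 peaks, and PcG (45.1%) and PS (45.8%) had 16 and 15. The part of the mitochondrial share in these calls was not tested. By single ligand the calls among the 22 peaks were 8 with PAM (20.5% of all peaks called), 11 with LPS (22.3%), 3 with HMW (10.7%), 5 with SeV (27.9%), 3 with cGAMP (23.3%) and 0 with depleted zymosan (5.91%; 4 had an unadjusted p under 0.05, and DESeq2's Wald test called 0 of the 22, of which 11 got no adjusted p there). Among pairs without PAM, they were 12 in LH (21.8%), 5 in ScG (27.7%), 7 in ZS (28.3%) and 4 in ZcG (21.6%). Pairs with PAM had 13 in PL (27.3%), 13 in PH (26.3%), 15 in PS (33.4%) and 16 in PcG (32.9%). The triplets had 15 in PLH (29.7%), 19 in PScG (37.1%) and 9 in ZScG (32.3%).

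Adding a second ligand was tested directly, as each pair against each of its single ligands, with no control library involved. Of 352 tests 71 were called, or 20.2%, against 6.48% over all peaks, and all 71 were higher in the pair (3.56% over all peaks). Adding a partner to PAM raised the +6.2, +7.4, +9.1 and +10.5 kb peaks in all 4 pairs. At +9.1 kb the log2 gain over PAM alone was 2.00 ± 0.26 in PS (adjusted p = 2.18e-10), 1.74 ± 0.27 in PcG (adjusted p = 7.57e-08), 1.65 ± 0.27 in PL (adjusted p = 1.54e-06) and 1.19 ± 0.27 in PH (adjusted p = 0.00253). The gain in PH was 0.75, and did not pass, without the first PAM library, and the other 3 calls at +9.1 kb held under all alternatives run. At +10.5 kb the PH call was lost without the first PAM library (2.07) or the first PH library (2.14), and at +7.4 kb the PL and PcG calls were lost without the second PAM library (1.32 and 1.14). At +6.2 kb all 4 calls were lost without the second PAM library, where the gains were 1.72 to 2.196. Over the 4 pairs 25 of the 88 tests against PAM alone were called (28.4%, against 11% over all peaks).

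The upstream peaks at -40.1 and -42.3 kb passed in none of those 4 comparisons with PAM alone, but rose when PAM was added to HMW, SeV or cGAMP. At -42.3 kb the call over HMW was lost without the second H library (1.23) or the first PH library (1.71), and that over SeV without the second S library (1.78). At -40.1 kb the gain was 1.85 ± 0.27 over cGAMP (adjusted p = 4.9e-09), 1.54 ± 0.26 over SeV (adjusted p = 2.53e-06) and 1.54 ± 0.24 over HMW (adjusted p = 1.31e-07). The gain at +9.1 kb from adding PAM was 3.37 ± 0.35 over cGAMP (adjusted p = 1.8e-17) and 3.17 ± 0.30 over SeV (adjusted p = 4.84e-18). The mitochondrial share was 45.8% ± 1.12 in PS and 47.9% ± 1.12 in S, and 45.1% ± 0.889 in PcG and 46.1% ± 1.61 in cG. Its part in these gains was not tested. PS exceeded S at 11 of the 22 peaks (2.44% of all peaks) and PcG exceeded cG at 8 (5.59%). Against LPS alone, PL was higher at 2 of the 22 peaks (0.765% of all peaks). The +9.1 kb call (1.48, adjusted p = 7.72e-05) held under all alternatives run, whereas the +7.4 kb call (1.14, adjusted p = 0.0474) was lost with total counts, with abundance-dependent offsets, with a replicate block and without any 1 of its 4 libraries (0.96 to 1.31).

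At the start site the gains were smaller. PS exceeded PAM by 0.48 ± 0.13 (adjusted p = 0.00421) and PcG exceeded it by 0.49 ± 0.13 (adjusted p = 0.00524), but each call ended without the first PAM library or without the second library of the pair. PL (0.37 ± 0.14, adjusted p = 0.0791, 95% interval 0.09 to 0.64) and PH (-0.07 ± 0.14, adjusted p = 0.878, -0.34 to 0.20) did not pass against PAM. No peak of the 22 passed in edgeR's test for LH against L (0.0645% of all peaks), ScG against S (0.579%), ZS against S (2.53%) or ZcG against cG (2.87%). Of these 88 tests 11 had an unadjusted p under 0.05, and DESeq2's Wald test called 0 but gave no adjusted p for 62. The mean mitochondrial share was 59.4% in ScG and 54.5% in ZS against 47.9% in S, and 63.0% in ZcG against 46.1% in cG. It was 51.6% in LH against 44.4% in L. Its part in these comparisons was not tested.

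Pairs were then compared with the sum of their single-ligand changes in log2 units, through the interaction of pair minus both singles plus control. Of 176 tests 9 were called (5.11%, against 5.18% over all peaks), and all 9 were negative, where over all peaks 2.07% were positive and 3.1% negative. Of these calls 5 lay at the start site and 4 upstream, and none inside or downstream of the gene. At the start site the interaction was -1.26 ± 0.21 in PL (adjusted p = 2.6e-06), -1.12 ± 0.22 in LH (adjusted p = 0.000169), -1.04 ± 0.22 in ScG (adjusted p = 0.000134), -0.91 ± 0.22 in PH (adjusted p = 0.00779) and -0.82 ± 0.21 in PS (adjusted p = 0.00767). The PH and PS calls were lost without the first control library (-0.75 and -0.65), and also without the second H library (-0.77) and the first PS library (-0.69). So the start-site peak rose less with PL, LH and ScG than the log2 changes of the single ligands add up to. The mean mitochondrial share was 59.4% in ScG against 47.9% in S, 46.1% in cG and 61.0% in control. It was 51.6% in PL, LH and H, 49.5% in P and 44.4% in L. Its part in these interactions, and in those upstream, was not tested. PcG (-0.66 ± 0.22, adjusted p = 0.0636), ZS (-0.53 ± 0.24, adjusted p = 0.233) and ZcG (-0.29 ± 0.24, adjusted p = 0.632) did not pass.

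Upstream, the PL interaction was -1.81 ± 0.38 at -40.1 kb (adjusted p = 0.00024), -2.57 ± 0.96 at -42.3 kb (adjusted p = 0.047) and -3.19 ± 1.20 at -47.2 kb (adjusted p = 0.0457), the last from 3 control counts. The ScG interaction at -19.3 kb was -1.75 ± 0.66 (adjusted p = 0.0492), with S at 2.36 and 2.34 CPM, cG at 2.94 and 1.93 CPM, ScG at 1.21 and 1.42 CPM and control at 1.31 and 1.25 CPM. Only the call at -40.1 kb, of these 4, held under all alternatives run. The -42.3 and -47.2 kb calls were each lost without any of 5 libraries, with values of -1.68 and -2.31 without the first control library, and the -19.3 kb call was lost with a replicate block and without 7 of its 8 libraries (-1.43 without the first cG library). Over all 176 tests 4 were called without the first control library. The +9.1 kb peak passed in no pair, with 1.19 ± 0.54 in PS (adjusted p = 0.24, 95% interval 0.13 to 2.26) and 1.39 ± 0.57 in PcG (adjusted p = 0.198, 0.27 to 2.51). Whether the start-site and +9.1 kb interactions differ from each other was not tested.

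**Figure D5:**
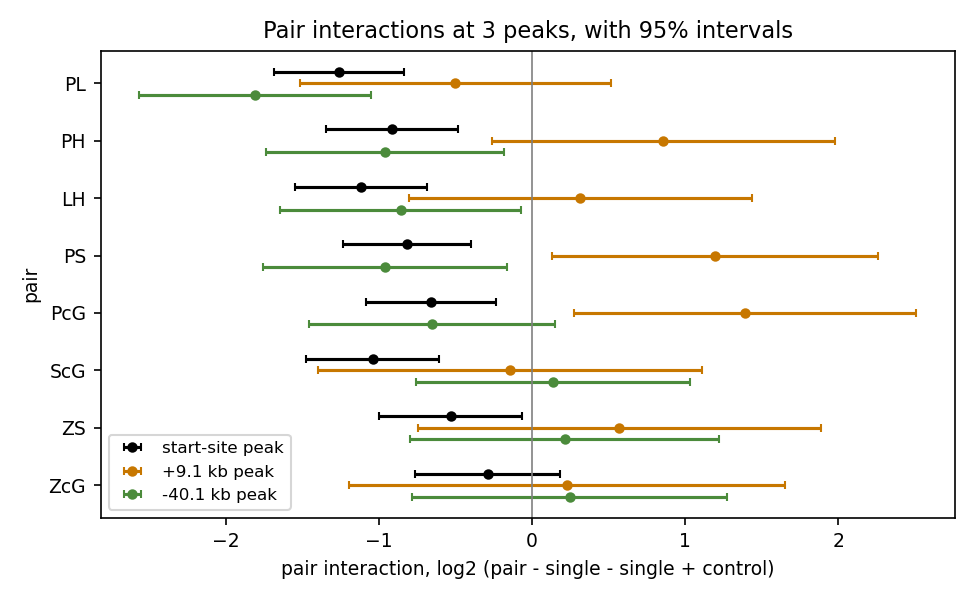
Pair interaction in log2 units with its 95% interval (horizontal) for each of the 8 pairs (vertical) at the start-site, +9.1 kb and -40.1 kb peaks. Start-site values run from -1.26 in PL to -0.29 in ZcG, and the +9.1 kb values of PS (1.19) and PcG (1.39) lie right of 0.

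The third ligand was examined in 2 ways. Against its own pairs, a triplet differed in 8 of 198 tests (4.04%, against 1.11% over all peaks), 7 of them higher (0.497% over all peaks) and 1 lower (0.61%). Of these, 6 were PScG over ScG (2.11% of all peaks), which is the addition of PAM: +9.1 kb by 3.12 ± 0.33 (adjusted p = 5.14e-15), +7.4 kb by 2.53 ± 0.42 (adjusted p = 7.3e-07), and the -40.1, +2.4, +5.4 and +10.5 kb peaks by 0.85 to 2.81. The mitochondrial share was 45.1% ± 0.954 in PScG against 59.4% ± 2.97 in ScG, and its part in these differences was not tested. The +9.1 and +7.4 kb calls held under all alternatives run, whereas each of the other 4 was lost without at least 1 library; without the first ScG library, for example, the -40.1 kb difference was 0.63. The other calls were the +7.4 kb peak, higher in ZScG than in ZcG by 2.56, and the +23.0 kb peak, lower in ZScG than in ScG (-1.87, adjusted p = 0.0478). The first was lost without any 1 of its 4 libraries (2.37 to 2.71). The second was lost under 3 other scalings, with the mitochondrial peak kept, and without 3 of its 4 libraries (-1.39 without the first ScG library). No peak passed when a triplet with PAM was compared with its own pairs that hold PAM (0 of 88 tests in edgeR's quasi-likelihood test, against 0.316% over all peaks; 5 had an unadjusted p under 0.05, and DESeq2's Wald test called 0 but gave no adjusted p for 48).

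The triplet interaction, which asks whether a pair's interaction depends on the third ligand, was called in 1 of 66 tests (1.52%, against 1.56% over all peaks). It was the start-site peak in PLH, at 1.09 ± 0.29 (adjusted p = 0.0392), and 10 of the 16 libraries behind it end the call when left out. At the same peak the values were 0.49 ± 0.29 for PScG (adjusted p = 0.475) and 0.23 ± 0.32 for ZScG (adjusted p = 0.82).

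Candidates outside the window were 15935 peaks within 1 kb of a protein-coding gene's start, or of either end where no strand was given. Among them, those whose group means were most like the start-site peak of Il6 were found by Pearson's r over the 18 groups. The highest was at Nos2, the inducible nitric oxide synthase, with r = 0.967 and a mean of 2.59 CPM in control, 14.7 CPM in PLH and 14.6 CPM in PScG. Next came Orm2 (0.938), an acute phase protein gene, then Jade2 (0.936), Tab2 (0.918), an adaptor of NF-kB signalling, and Cd40 (0.910), a costimulatory receptor. By rank correlation over the same groups, 2 of these 5 (Orm2 and Nos2) were again among the highest 5. These values describe 18 group means that share libraries and scaling, and carry no test. Within the locus the +9.1 kb peak ran closest to the +7.4 kb peak (r = 0.959) and the +5.4 kb peak (r = 0.957), and less close to the start-site peak (r = 0.807).

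Start-site peaks of genes that act with Il6 were taken from 4 lists and tested against control in the same 17 comparisons, where 25.2% of tests were called over all peaks. For some genes, among them Il27, Clcf1, Nfkbiz and Cebpd, no strand was given, so their peak may lie at either end of the gene. For the IL-6 receptor and its signalling, 113 of 289 tests were called (39.1%), 75 higher and 38 lower over 17 genes, with a median log2 difference of 0.03. Socs3, Cish and Socs1, which encode inhibitors of cytokine receptor signalling, rose in all 17 stimulations each: Socs3 by 0.93 (H) to 2.13 (PScG), Cish by 0.48 (H) to 1.17 (PScG) and Socs1 by 0.41 (P) to 1.06 (cG). Stat3, the main transducer of IL-6, and Pias3, an inhibitor of STAT3, were called in none. The receptor chains, singled out after their values were seen, moved in opposite directions: Il6ra rose in 5 stimulations and Il6st fell in 8.

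For 18 transcription factors and cofactors known to act on Il6, 149 of 306 tests were called (48.7%), 104 higher and 45 lower. Nfkbiz, the cofactor IkB-zeta, rose in 17 of 17 by 0.38 (ZS) to 0.95 (ScG), and Nfkb2, an NF-kB subunit, in 16 by up to 1.35 (PScG). Cebpd, which encodes C/EBP-delta, fell in 15 of 17, with a median log2 difference of -0.79. Among 8 genes of Il6 mRNA stability 58 of 136 tests were called (42.6%), 17 higher and 41 lower. Zfp36l1, an RNA-decay factor, fell in 13, with its lowest log2 difference of -1.86 in LH, Rc3h1, which encodes Roquin-1, fell in 11, and Arid5a, which stabilises Il6 mRNA, rose in 10.

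For the IL-6 family, 10 of 12 genes had a tested peak (Cntf and Cntfr had none), and 78 of 170 tests were called (45.9%), 66 higher and 12 lower. Il27 rose in 15 stimulations by up to 2.42 (S), Clcf1 in 14 by up to 1.47 (PScG) and Ebi3, the partner chain of IL-27, in 12 by up to 0.87 (PL). Osmr, an oncostatin M receptor chain, was called in none. The split between higher and lower depended on scaling: with total counts it was 140 and 12 for the receptor list, 180 and 21 for the factors, 33 and 13 for mRNA stability and 85 and 6 for the family. With offsets that depend on abundance it was 94 and 25, 156 and 31, 24 and 20, and 68 and 9. Under total counts Rc3h1 fell in none, Il6st in 1, Stat3 rose in 9 and Pias3 in 11, while the directions of the other named list genes were as given.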

How the data were processed

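ATAC-seq libraries of 36 samples were analysed from a deposited table of raw counts per peak, which the authors made without normalization, and a deposited list of peak positions. The submitters' processing notes name Bowtie2 2.2.9, MACS2 (given there as 1.4), bedtools, featureCounts and the build mm10, with no roles. Per the labels, libraries had 12 PCR cycles and reads of 42 bases. Handling of duplicates, shifting of read ends and pooling for peak calls are not given in the sources used here. Reads carry no molecular identifiers, so counting intervals and limits cover counting error only, and a count of 0 allows up to 3 counts.

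Samples were grouped by title, and 0 count columns were left unused. The mitochondrial peak was left out of library sizes and tests. The low-count filter filterByExpr, applied with the groups and a minimum count of 10, removed 286 peaks. The other 119464 were fitted in edgeR 4.0.16 (R 4.3.3) with TMM, trended dispersion and the robust quasi-likelihood test, 1 coefficient per group and 18 residual degrees of freedom. The median prior degrees of freedom were 186, so the variance used for a peak leaned mostly on the trend over all peaks. P-values were adjusted by Benjamini-Hochberg within each of 53 contrasts: 17 stimulations against control, 8 pair and 3 triplet interactions, 9 triplets against pairs and 16 pairs against single ligands. Comparisons with control share its 2 libraries. Likeness used log2 CPM with a prior count of 2. The fit was tested on simulated counts.

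The members and lists were chosen with earlier results of these data known, and no list is independent evidence. In each list the 3 genes called in most stimulations and all called in none are named, each taken by its tested peak with the highest mean count within 1 kb of its start. Likeness names the 5 highest peaks at starts of protein-coding genes. Where no strand was given for a gene, either end of it counted as its start, in the lists, the markers and the likeness. Gene positions, names and the promoter sequence are from RefSeq GRCm38.p6. The same-number libraries of different groups did not deviate together (correlations from -0.04 to 0.03, over 0.1 in 0 of 153 pairs of groups), so replicate numbers were not used as pairs. Replicates of a group differed by more than sampling noise (chi-square per degree of freedom 2.08 to 3.31). Other scalings (DESeq2 size factors, total counts, offsets that depend on abundance), no filter, the mitochondrial peak kept, a replicate block, DESeq2 1.42.0's Wald test, windows of 25 and 100 kb, rank correlation and leaving out each library were tried as alternatives. Restricting the stimulations to those with a mitochondrial share near that of control was added after seeing the data. The split of stimulations by PAM was not among the planned results either.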

Additional observations from a re-analysis of the deposited data

Results flagged for a closer look

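In 10 tests at Il6 locus peaks an interaction term was called in edgeR's quasi-likelihood test, 9 for pairs and 1 for a triplet. Of these, 6 lay at the start-site peak: the pair interactions in log2 units were -1.26 for PL, -1.12 for LH, -1.04 for ScG, -0.91 for PH and -0.82 for PS, and the triplet interaction of PLH was 1.09. The other 4 lay upstream. PL gave -1.81 at the -40.1 kb peak, -2.57 at the -42.3 kb peak and -3.19 at the -47.2 kb peak, and ScG gave -1.75 at the -19.3 kb peak. The share of pair interaction tests called at the locus (5.11%) was close to that over all tested peaks (5.18%), and the same holds for the triplet interactions (1.52% and 1.56%). Only the calls of PL, LH and ScG at the start site and of PL at -40.1 kb held under all alternatives run. The part of the mitochondrial share in these interactions was not tested.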

How the results depend on the processing

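No called test of the locus changed direction under any alternative run. The 158 calls against control became 141 to 185 under other scalings, 158 with no filter, 160 with the mitochondrial peak kept, 146 with DESeq2's Wald test and 111 to 159 when 1 library was left out, the lowest without the first control library, and the start-site peak passed in 16 stimulations throughout. Of the 158, 94 passed under every alternative that gave an adjusted p. Windows of 25 and 100 kb gave 110 of 289 and 232 of 561 tests called (38.1% and 41.4%). Restricted to the 4 stimulations with a mitochondrial share near that of control, 18 were called. Scaling by total counts shifted the median over all peaks by -0.057 to 0.42 for stimulations, by -0.63 to -0.14 for pair interactions and by 0.43 to 0.53 for triplet interactions, and calls became 21 for pair interactions, 4 for triplet interactions and 13 for triplets against pairs. The Wald test gave 5 for triplets against pairs. It gave no adjusted p, through its filter on low counts, for 2 of the 158 calls against control, 1 pair interaction, 4 triplets against pairs and 11 pairs against single ligands, which count as neither kept nor lost. Leaving out 1 library gave 4 to 10 pair interactions (4 without the first control library), 0 to 2 triplet interactions, 4 to 9 triplets against pairs (4 without the first ScG library, 5 without the first PScG library) and 61 to 72 pairs against single ligands. In these fits the lone library of a group is assumed to vary like the others. Of the 9 pair interactions 4 passed throughout (start site in PL, LH and ScG, and -40.1 kb in PL), as did 25 of 71 pairs against single ligands, 2 of 8 triplets against pairs and 0 of 1 triplet interactions. By rank correlation 2 of the 5 most alike peaks were shared. A replicate block gave 157 calls against control, 8 pair interactions, 1 triplet interaction, 8 triplets against pairs and 70 pairs against single ligands, although the numbers do not pair the samples.

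Depth limits the weak peaks: control held 5 counts or fewer in both libraries together at 9 of the 22 peaks, where fold changes are poorly fixed.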
